A study of Mus musculus with 18 samples.

Results

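The genes described here are 38 genes of the lysosome and of autophagy. They were chosen by name and not by a rule on their values in these arrays, but with earlier results of these data known. They cover lysosomal membrane proteins, proteases, glycosidases and lipid enzymes, the transcription factors Tfeb and Tfe3, and the machinery that forms autophagosomes. A probe set that carries a single gene symbol was found for 37 of the 38, among 18193 genes named on the array. Cd63, which encodes a tetraspanin of late endosomes and lysosomes, has no such probe set and has no value below. Where a gene had several probe sets, the one with the highest mean signal was used. Each of the 37 genes exceeded a signal of 15.2, the median of all values, on 18 of 18 arrays, so the filter on low signals (above that level on at least 4 arrays), which kept 11104 genes, removed none of them.

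RNA was measured on Affymetrix Mouse Genome 430 2.0 arrays in B lymphocytes carrying CD23, taken from the spleens of C57BL/6J mice with no engineered allele named in the labels. The mice had received PF-303, an inhibitor of the kinase BTK, or its vehicle, and 2 h later an antibody against IgD, which crosslinks the antigen receptor of mature B cells, or PBS. Cells were collected 2 h after the antibody or PBS. The 4 groups were anti-IgD + PF-303 (n = 5), anti-IgD + vehicle (n = 4), PBS + PF-303 (n = 5) and PBS + vehicle (n = 4). Whether the arrays of a group came from different mice is not stated in the labels, and p-values here cover the spread between arrays, part of which may be technical.

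Lysosomes are acidic organelles in which hydrolases break down proteins, glycans and lipids brought in by endocytosis or by autophagy, the enclosure of cytoplasm in a membrane that then fuses with the lysosome. In B cells the antigen receptor carries bound antigen into this compartment, where cathepsins and legumain trim it for loading on MHC class II molecules. Many lysosomal genes share a promoter element, the CLEAR element, with the core letters CACGTG, to which TFEB and TFE3 bind. The kinase complex mTORC1, recruited to the lysosomal surface by Rag GTPases, phosphorylates both factors and holds them in the cytoplasm. That regulation acts on the proteins, whose phosphorylation and location arrays do not measure.

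Printed here are promoters of 4 genes that carry that core and, in the test below, were higher with PF-303 in anti-IgD mice. They are the RefSeq windows from 250 bases before to 50 bases after the annotated start site in GRCm38.p6, all on the plus strand, written 5′ to 3′. Capitals mark TCACGTG or its reverse complement CACGTGA, and both readings overlap where 8 letters are in capitals. The windows are chr8:13158911-13159210 for Lamp1, chr2:164833523-164833822 for Ctsa, chr8:3500269-3500568 for Mcoln1 and chr11:119267713-119268012 for Gaa.
Lamp1: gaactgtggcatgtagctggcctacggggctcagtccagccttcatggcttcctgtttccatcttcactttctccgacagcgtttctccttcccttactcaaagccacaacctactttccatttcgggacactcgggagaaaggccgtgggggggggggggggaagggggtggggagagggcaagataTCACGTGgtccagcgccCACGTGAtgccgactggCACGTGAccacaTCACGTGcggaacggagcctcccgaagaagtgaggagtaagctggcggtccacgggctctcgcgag
Ctsa: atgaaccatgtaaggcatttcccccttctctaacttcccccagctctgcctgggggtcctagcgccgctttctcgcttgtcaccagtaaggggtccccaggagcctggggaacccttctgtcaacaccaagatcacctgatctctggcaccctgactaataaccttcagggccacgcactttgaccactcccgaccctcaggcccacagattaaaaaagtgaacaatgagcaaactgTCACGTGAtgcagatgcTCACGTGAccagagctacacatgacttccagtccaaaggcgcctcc
Mcoln1: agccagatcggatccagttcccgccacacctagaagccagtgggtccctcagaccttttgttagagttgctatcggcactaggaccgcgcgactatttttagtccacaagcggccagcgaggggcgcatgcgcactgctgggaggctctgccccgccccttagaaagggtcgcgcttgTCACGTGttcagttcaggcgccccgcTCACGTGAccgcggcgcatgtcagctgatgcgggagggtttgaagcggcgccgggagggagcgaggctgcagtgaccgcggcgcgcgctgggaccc
Gaa: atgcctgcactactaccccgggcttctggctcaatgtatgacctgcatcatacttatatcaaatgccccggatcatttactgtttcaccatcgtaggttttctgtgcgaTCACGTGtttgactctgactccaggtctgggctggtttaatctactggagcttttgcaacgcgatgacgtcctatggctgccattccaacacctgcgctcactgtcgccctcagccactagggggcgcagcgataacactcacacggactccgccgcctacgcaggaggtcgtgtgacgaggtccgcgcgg
The core CACGTG was present 4 times in the Lamp1 window, 2 times in those of Ctsa and Mcoln1, and 1 time in that of Gaa. RefSeq windows were found for 30 of the 37 genes, 35 windows in all. CACGTG, which is its own reverse complement, was present in 9 of the 35 windows (25.7%), against 7.15% of 32851 windows of all genes and 10.0% of 11553 windows of the genes tested. The longer TCACGTG, searched on both strands and containing CACGTG, was present in 7 of the 35 windows (20.0%), against 3.77% of all windows and 5.96% of those of tested genes. These 7 were the windows of Atg7, Ctsa, Ctsd, Gaa, Glb1, Lamp1 and Mcoln1. CACGTG was also in those of Atg5 and Ctsl. A still longer form, which contains TCACGTG and is its own reverse complement, was searched as well. It was present in 0 of the 35 windows, against 0.326% of all windows and 0.71% of those of tested genes. With shares that low, 35 windows are too few to tell its absence from the level of all genes. Ctsd was higher with PF-303 in anti-IgD mice too and is not printed, and Glb1 was lower with anti-IgD in vehicle mice. Tfeb, Psap, Npc1 and Hexa, with the largest differences for PF-303 in anti-IgD mice, were not among the genes with the core. Windows were not found for every gene, and a link between the core and the changes was not tested. A match is a run of letters and not a measured binding site, and no match says only that the letters are not in that window.

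Stimulation was checked with Egr2, an early response gene of the antigen receptor. Its log2 difference between anti-IgD and PBS was 4.76 ± 0.13 (SE) in PF-303 mice and 5.08 ± 0.14 in vehicle mice. Against vehicle, Egr2 was lower with PF-303 both in anti-IgD mice (-1.80 ± 0.13) and in PBS mice (-1.48 ± 0.13). Of 10 markers of follicular B cells 8 were measured, and their summed signal lay between 22063 and 31223 on anti-IgD + PF-303 arrays, 15540 and 18305 on anti-IgD + vehicle arrays, 21791 and 36467 on PBS + PF-303 arrays and 21750 and 38960 on PBS + vehicle arrays. Thus 4 of these 8 markers were called higher with PF-303 in anti-IgD mice and 6 of 8 were called lower with anti-IgD in vehicle mice, and the part of this in the results below was not tested. Of 10 T cell markers 8 had a probe set, and Cd3e, Cd4 and Cd8b1 were below the filter level of 15.2 on every array. Thy1 did not pass the filter, and Cd3d, Cd3g, Cd8a and Cd28 passed it. The summed signals of all 8, those below the filter included, were 68.9 to 150 on anti-IgD + PF-303 arrays and 64.6 to 109 on anti-IgD + vehicle arrays. On PBS arrays these sums were 52.7 to 140 with PF-303 and 66.6 to 139 with vehicle. In 6 arrays the spike-in controls exceeded 2 times their median over arrays, 2 each in the anti-IgD + PF-303, PBS + PF-303 and PBS + vehicle groups and 0 in the anti-IgD + vehicle group. In 2 arrays, replicate 1 of anti-IgD + PF-303 (1.11) and replicate 4 of PBS + vehicle (1.22), the ratio of 3′ to 5′ GAPDH signal was above 1, against 0.826 or less on the other arrays.

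Many lysosomal genes had higher signals, relative to the rest of the array, on anti-IgD + PF-303 arrays than on anti-IgD + vehicle arrays. Of the 37 genes 18 were higher (48.6%) and 1 lower, at an adjusted p under 0.05 in limma, where 19.8% of all 11104 genes were higher and 10.4% lower (30.2% in either direction). The 18 were spread over the lysosomal roles, with 5 of 6 membrane proteins and transporters, 4 of 8 proteases, 3 of 5 glycosidases and 4 of 5 genes of lipid breakdown and activators, whereas 1 of 4 genes of cargo receptors and ATG8 proteins and 0 of 7 genes of autophagosome formation were higher in limma (2 of the 7 had an unadjusted p under 0.05). The median log2 difference of the 37 genes was 0.29, beside 0.08 for all genes tested. Here and below, a log2 difference is between group means of log2(signal + 16), with its standard error, and adjusted p-values follow Benjamini and Hochberg over all 11104 genes. With the letter of each array's position code as a block, 12 of the 18 were still called, and Lamp1 (0.21), Ctsd (0.38), Ctsh (0.41), Gaa (0.20), Npc2 (0.35) and Mcoln1 (0.20) were not. What the position code stands for is not stated in the labels. Of the letters only C held arrays of both stimulated groups, 2 with PF-303 and 1 with vehicle, and within it the median log2 difference of the 37 genes was 0.28, with no test.

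In mice without anti-IgD, limma called 0 of the 37 genes higher and 0 lower with PF-303, and 4 had an unadjusted p under 0.05. Among all genes 0.747% were called in this comparison (0.072% higher and 0.675% lower). The values with the largest size were 0.34 ± 0.15 for Gabarapl1, -0.27 ± 0.09 for Gusb and -0.26 ± 0.13 for Tfe3, with adjusted p-values of 0.43, 0.19 and 0.50. Gusb was called lower without replicate 2 of PBS + vehicle.

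**Figure D1:**
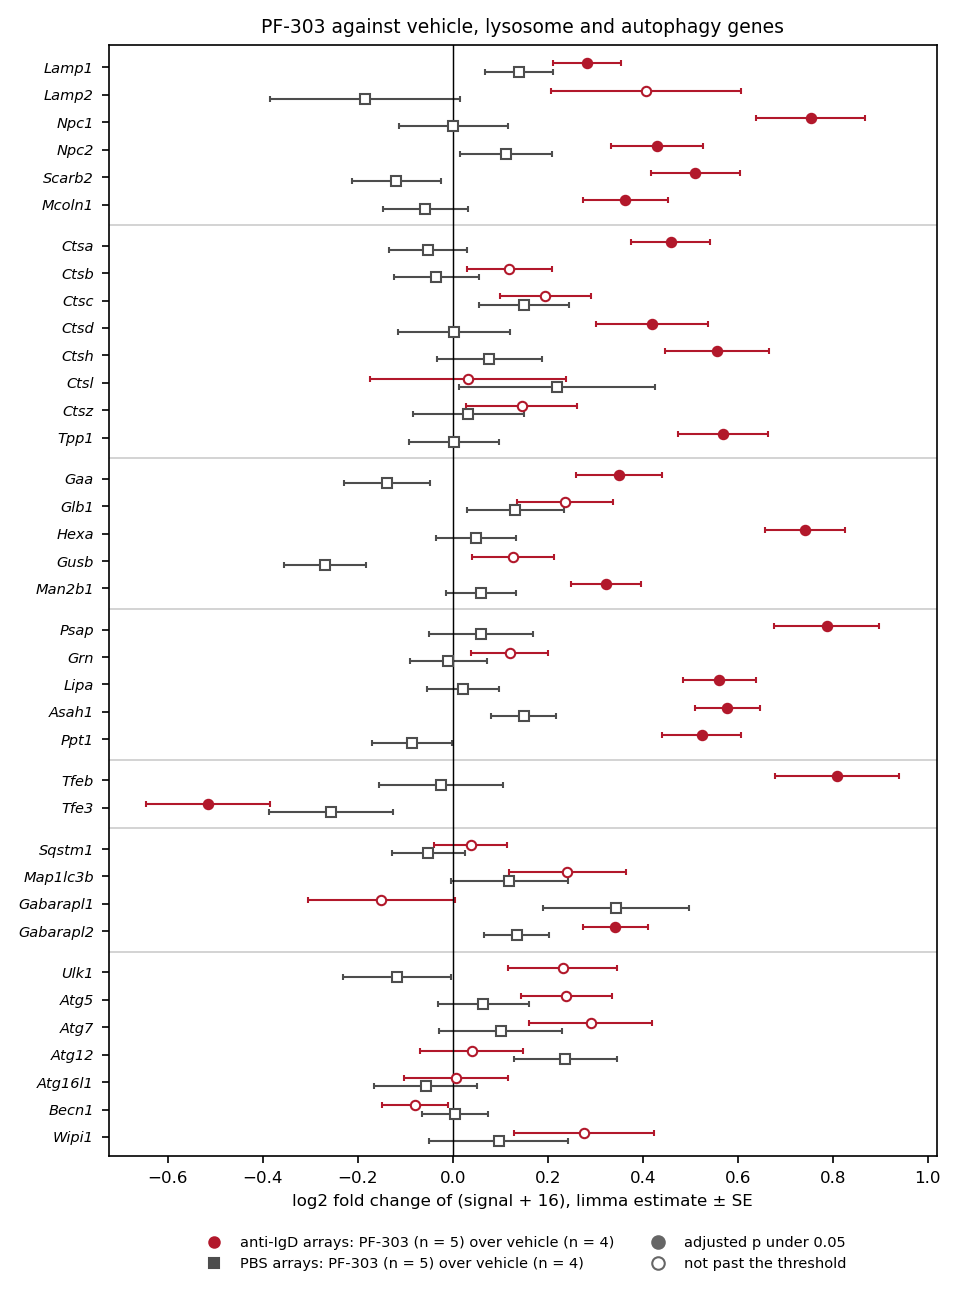
Log2 difference between PF-303 and vehicle for each of the 37 genes, grouped by role (horizontal axis, limma estimate ± SE of log2(signal + 16)), in anti-IgD mice (red circles) and in PBS mice (grey squares). Filled symbols are called at an adjusted p under 0.05: 18 red circles lie to the right of 0, Tfe3 lies to the left, and no grey square is filled.

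Anti-IgD itself moved the genes both ways in vehicle mice. It left 7 of the 37 genes higher (18.9%) and 11 lower (29.7%), where 17.4% of all genes were higher and 30.6% lower (47.9% in either direction), shares close to those of the 37 genes. The genes that were higher were Lamp1, Ctsl, Tpp1, Gaa, Hexa, Tfe3 and Becn1. Those that were lower were Npc1, Scarb2, Ctsh, Glb1, Man2b1, Psap, Lipa, Asah1, Ppt1, Tfeb and Gabarapl2. When every array was shifted to one median, 11 of the 37 were higher and 10 lower, and over all genes 21.9% were higher and 22.6% lower. The calls of Ctsl and Becn1 were lost with the position letter as a block (0.30 and 0.21) and without the 6 arrays of high spike-in level (0.50 and 0.16), and that of Psap was lost with the block (-0.43).

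In PF-303 mice anti-IgD left 14 of the 37 genes higher (37.8%) and 5 lower (13.5%), where 14.7% of all genes were higher and 19.1% lower (33.8% in either direction). The median log2 difference of the 37 genes was 0.15, beside -0.05 for all genes. Position letters F and G held arrays of both groups. Within F (2 anti-IgD arrays and 1 PBS array) the median of the 37 genes was 0.18, and 19 of the 19 called genes kept their sign. Within G (1 and 1) the median was -0.005 and 17 of the 19 kept it, with no test in either letter. Genes called higher were Lamp1, Lamp2, Mcoln1, Ctsa, Ctsb, Ctsd, Ctsz, Tpp1, Gaa, Hexa, Gusb, Psap, Grn and Map1lc3b, and genes called lower were Scarb2, Lipa, Gabarapl1, Gabarapl2 and Atg12. The calls of Psap (adjusted p = 0.049) and Ctsz (0.048) lay at the threshold. With the position letter as a block the calls of Mcoln1 (0.25), Ctsz (0.28), Psap (0.31), Map1lc3b (0.33), Scarb2 (-0.25), Lipa (-0.24), Gabarapl1 (-0.44) and Atg12 (-0.32) were lost. With the 6 arrays of high spike-in level left out, those of Ctsb (0.21), Grn (0.19), Gabarapl1 (-0.45) and Atg12 (-0.18) were lost.

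The direct test of whether the response to anti-IgD differed between PF-303 and vehicle mice, the interaction in the same fit, called 13 of the 37 genes, each with the higher response in PF-303 mice, and 0 with the lower, where 6.66% of all genes had a higher and 3.12% a lower response (9.78% in either direction). These were Npc1, Scarb2, Mcoln1, Ctsa, Tpp1, Gaa, Hexa, Gusb, Psap, Lipa, Asah1, Ppt1 and Tfeb. With the position letter as a block the count was 4, and the calls of Mcoln1 (0.20), Ctsa (0.37), Tpp1 (0.44), Gaa (0.33), Hexa (0.57), Gusb (0.44), Psap (0.74), Asah1 (0.42) and Tfeb (0.95) were lost. When the 6 arrays with a high spike-in level were left out it was 8, without Mcoln1 (0.51), Gaa (0.42), Gusb (0.28), Lipa (0.41) and Tfeb (0.65). The calls of Npc1 and Ppt1 held under every alternative that was run. Npc1 has 1 probe set. With probe sets tested one by one, 1 of the 3 of Ppt1 above the filter was called (0.44 to 0.61 over the 3).

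**Figure D2:**
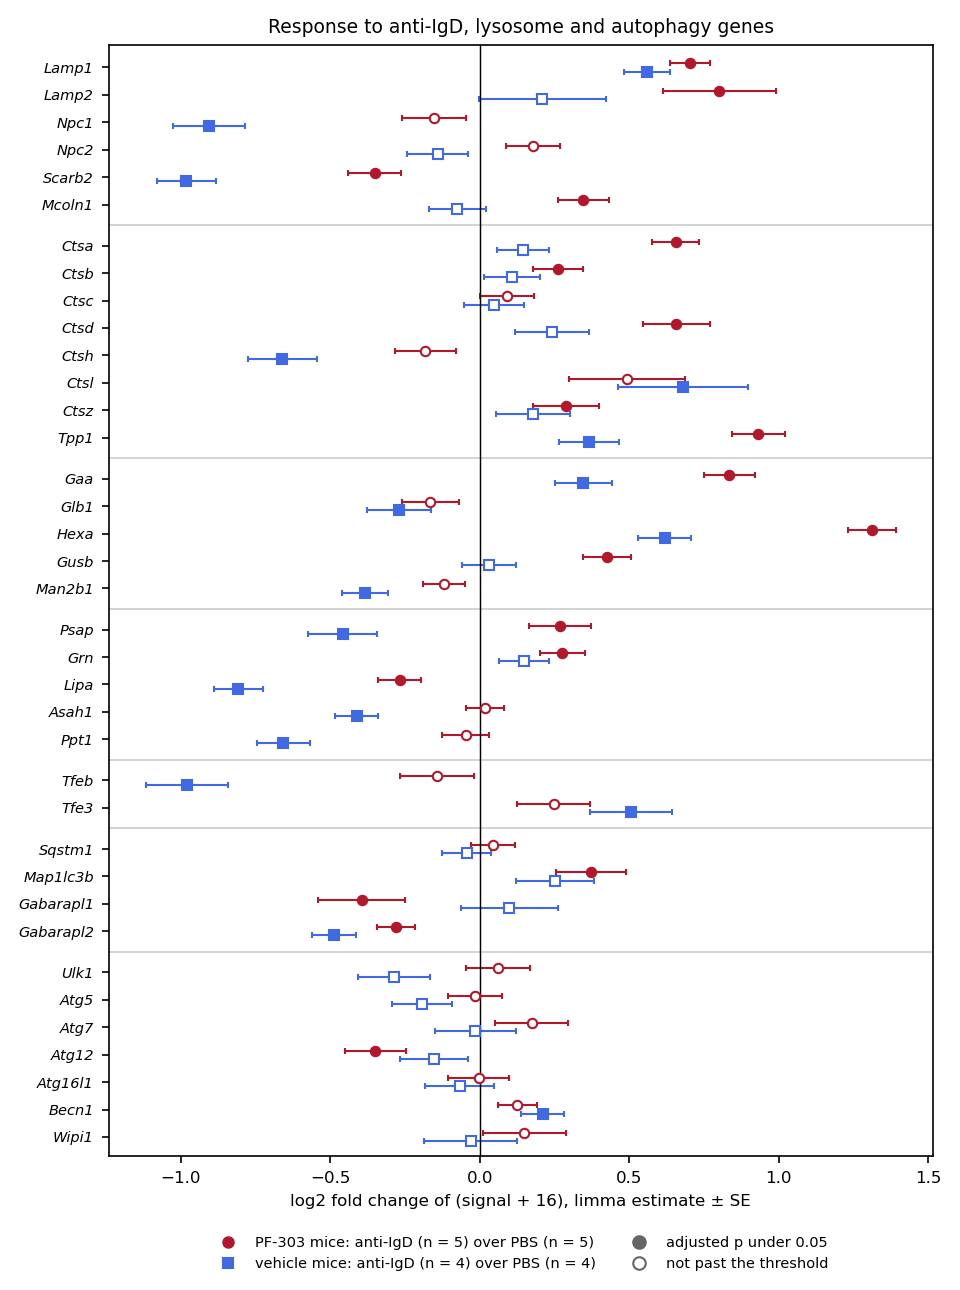
Log2 difference between anti-IgD and PBS for each of the 37 genes (horizontal axis, limma estimate ± SE of log2(signal + 16)), in PF-303 mice (red circles) and in vehicle mice (blue squares), with filled symbols called at an adjusted p under 0.05. Hexa has the value farthest to the right in PF-303 mice (1.31), and Scarb2, Tfeb and Npc1 lie near -1 in vehicle mice (-0.98, -0.98 and -0.91).

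Both transcription factors were called with PF-303 in anti-IgD mice, in opposite directions. Tfeb encodes the basic helix-loop-helix factor named above, and its signals were 118, 133, 141, 144 and 109 on the anti-IgD + PF-303 arrays and 47.3, 84.6, 66.7 and 71.1 on the anti-IgD + vehicle arrays. On PBS arrays they were 133, 129, 141, 135 and 186 with PF-303 and 139, 123, 178 and 151 with vehicle. Thus each anti-IgD + vehicle array lay below all other arrays, and the other 3 groups overlapped. The log2 difference between PF-303 and vehicle in anti-IgD mice was 0.81 ± 0.13 (adjusted p = 6.1e-05), that between anti-IgD and PBS was -0.14 ± 0.12 in PF-303 mice (0.41) and -0.98 ± 0.14 in vehicle mice (3.9e-06), and the 2 responses differed by 0.84 ± 0.18 (0.0063, not called with the position block at 0.95).

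Tfe3 encodes the related factor, with signals of 92.7, 85.9, 103, 92.2 and 91.4 on anti-IgD + PF-303 arrays and 131, 151, 136 and 141 on anti-IgD + vehicle arrays. The PBS arrays had 69.4, 63.9, 115, 73.7 and 64.6 with PF-303 and 88.1, 77.9, 90.3 and 123 with vehicle. All 4 anti-IgD + vehicle arrays were above the other 14, while the remaining groups overlapped. PF-303 lowered Tfe3 in anti-IgD mice, with a log2 difference of -0.52 ± 0.13 (adjusted p = 0.0043), and anti-IgD raised it in vehicle mice by 0.51 ± 0.14 (0.0041). In PF-303 mice the response was 0.25 ± 0.12 (adjusted p = 0.13), and the difference of the 2 responses was not called (-0.26 ± 0.18, 0.42).

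**Figure D3:**
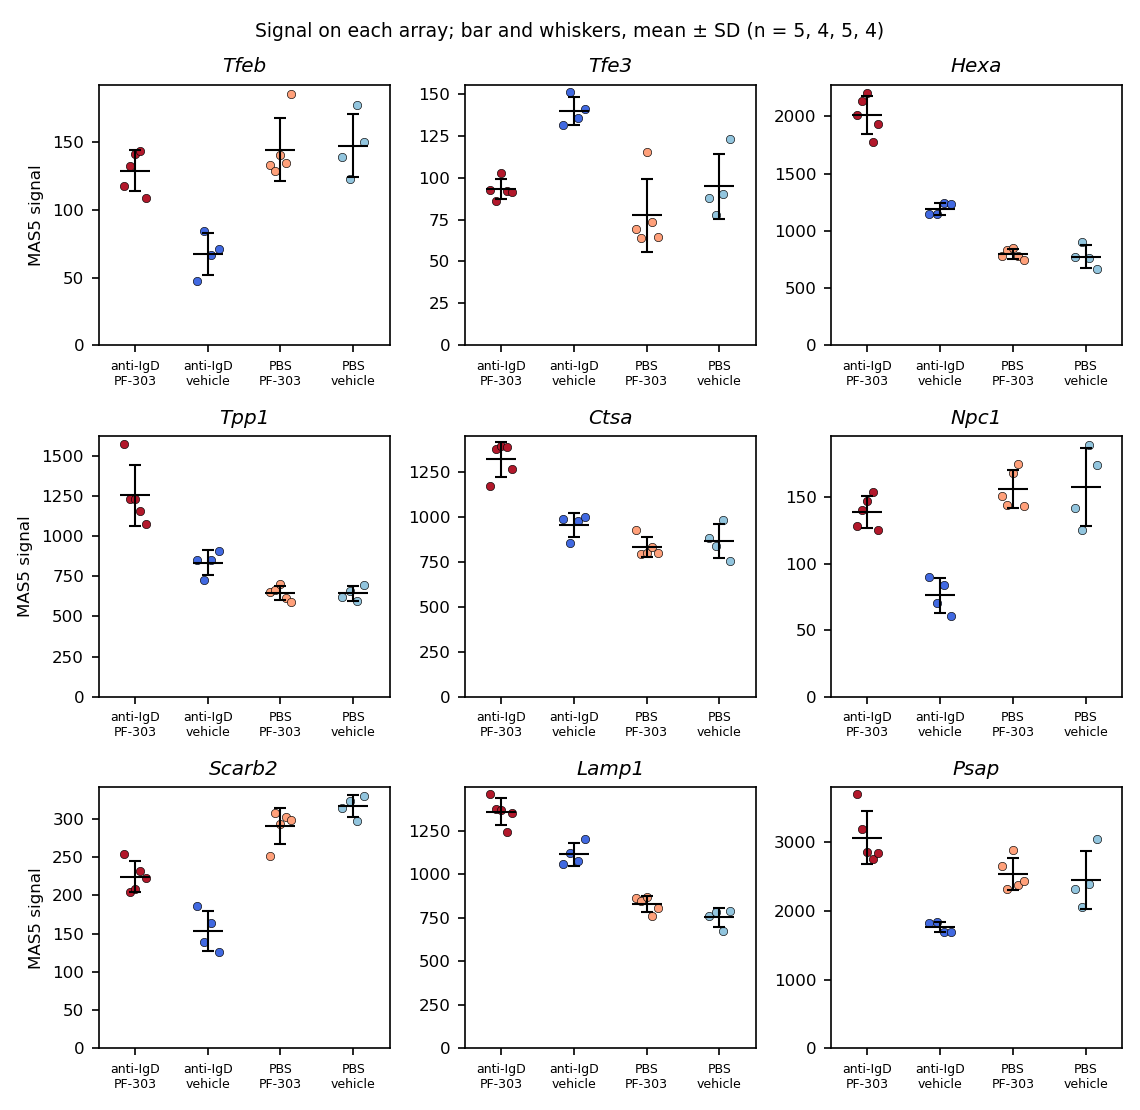
MAS5 signal of 9 genes on each array (vertical axes, linear and starting at 0), with the group mean and SD. In the anti-IgD + vehicle group the signals of Tfeb, Npc1, Scarb2 and Psap are below those of the other groups and those of Tfe3 above them, while Hexa, Tpp1, Ctsa and Lamp1 are highest in the anti-IgD + PF-303 group.

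Among membrane proteins and transporters, Npc1 and Scarb2 were low on the anti-IgD + vehicle arrays. Npc1, whose product exports cholesterol from the lysosome, had signals of 128, 140.5, 147, 154 and 125 on anti-IgD + PF-303 arrays and 90.2, 70.3, 84.1 and 61.1 on anti-IgD + vehicle arrays. In PBS mice the signals were 151, 144, 168, 175 and 143 with PF-303 and 142, 125, 189.6 and 174 with vehicle. The highest anti-IgD + vehicle array (90.2) lay below every other array. With anti-IgD, PF-303 arrays were higher than vehicle arrays by 0.75 ± 0.11 (log2, adjusted p = 3.1e-05), and anti-IgD lowered Npc1 in vehicle mice, at -0.91 ± 0.12 (1.9e-06). The response in PF-303 mice was -0.15 ± 0.11 (0.31), and the 2 responses differed by 0.75 ± 0.16 (0.0051).

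Scarb2 encodes the receptor that carries glucocerebrosidase to the lysosome, and its signals were 254, 205, 208, 232 and 223 on anti-IgD + PF-303 arrays, against 186, 139, 164 and 126 on anti-IgD + vehicle arrays. They were 251, 308, 293, 302 and 299 on PBS + PF-303 arrays, against 315, 324, 297 and 330.1 on PBS + vehicle arrays. The stimulated groups did not overlap, and every anti-IgD array of vehicle mice was below every PBS array. Anti-IgD lowered Scarb2 in both kinds of mice, at -0.35 ± 0.09 with PF-303 (adjusted p = 0.0035) and -0.98 ± 0.10 with vehicle (3.6e-08). The difference between PF-303 and vehicle in anti-IgD mice was 0.51 ± 0.09 (0.00023), and the responses differed by 0.63 ± 0.13 (0.0044). On its other probe set these values were 0.13 and 0.08, neither of them called, and the interaction was lost with the mean of both probe sets (0.35).

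Lamp1 was higher with anti-IgD in both kinds of mice. Lamp1, which encodes a heavily glycosylated protein of the lysosomal membrane, had signals of 1458, 1374, 1365, 1244 and 1351 on anti-IgD + PF-303 arrays and 1057, 1121, 1074 and 1203 on anti-IgD + vehicle arrays. PBS + PF-303 arrays had 863, 848, 867, 760.0 and 805, and PBS + vehicle arrays 762, 782, 673 and 787. Each anti-IgD group was above both PBS groups, and the anti-IgD + PF-303 arrays were above all others. The log2 difference with anti-IgD was 0.70 ± 0.07 in PF-303 mice (adjusted p = 3.5e-08) and 0.56 ± 0.08 in vehicle mice (2.3e-06), and the interaction was not called (0.14 ± 0.10, 0.42). PF-303 raised it in anti-IgD mice by 0.28 ± 0.07 (0.0045).

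Mcoln1 encodes a calcium-permeable channel of the lysosomal membrane, with signals of 197, 213, 183, 209 and 166 on anti-IgD + PF-303 arrays and 137, 128, 153 and 171 on anti-IgD + vehicle arrays. The values were 161, 148, 154, 142 and 137 on PBS + PF-303 arrays and 164, 164, 145 and 148 on PBS + vehicle arrays. The lowest anti-IgD + PF-303 array was below the highest anti-IgD + vehicle array, and it was above every PBS array, the PBS + PF-303 arrays included. Its log2 differences were 0.36 ± 0.09 for PF-303 with anti-IgD (adjusted p = 0.0036), 0.35 ± 0.08 for anti-IgD in PF-303 mice (0.0028) and -0.08 ± 0.09 for anti-IgD in vehicle mice (0.55). The interaction of 0.42 ± 0.13 (0.038) was lost under 18 of the 30 alternatives run, among them quantile normalization (0.37) and the position letter as a block (0.20). It was lost on leaving out any of replicates 1, 2 and 4 of anti-IgD + PF-303, of anti-IgD + vehicle and, in PBS mice, replicates 2, 4 and 5 of PF-303 and 1 and 2 of vehicle (0.36 to 0.44).

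Lamp2, which encodes a further membrane glycoprotein with a part in chaperone-mediated autophagy, varied more between arrays, at 1613, 882, 1708, 1496 and 976 with anti-IgD + PF-303 and 835, 937, 991 and 1134 with anti-IgD + vehicle. PBS + PF-303 arrays had 866, 582, 963, 851 and 509.7 and PBS + vehicle arrays 853, 644, 1105 and 801. All of these groups overlapped, and on the probe set used the one comparison called was anti-IgD against PBS in PF-303 mice, at 0.80 ± 0.19 (adjusted p = 0.002). In vehicle mice the value was 0.21 ± 0.21 (0.44), but 3 of its 4 probe sets were called higher there (0.21 to 0.75 over the 4), as was their mean (0.50), and the interaction was not called on any of the 4. Npc2, a soluble carrier that hands cholesterol to NPC1, averaged 1444 ± 180.2 with anti-IgD + PF-303 and 1063 ± 83.6 with anti-IgD + vehicle (SD, n = 5 and 4), without overlap of the arrays (0.43 ± 0.10, adjusted p = 0.0016). On the probe set used it had no call in the other comparisons, and 1 of its 3 probe sets above the filter was called in the interaction (0.32 to 0.52 over the 3).

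Hexa had the largest log2 difference with anti-IgD in PF-303 mice among the 37 genes. It encodes the alpha subunit of beta-hexosaminidase A, which degrades GM2 ganglioside, and had signals of 2015, 2132, 2201, 1776 and 1929 on anti-IgD + PF-303 arrays and 1146, 1147, 1245 and 1233 on anti-IgD + vehicle arrays. In PBS mice they were 776, 837, 852, 784 and 746 with PF-303 and 769, 905, 762 and 665 with vehicle. Both anti-IgD groups lay above the PBS groups, the PF-303 arrays above the vehicle arrays, and the 2 PBS groups overlapped. Anti-IgD raised Hexa by 1.31 ± 0.08 (log2) in PF-303 mice (adjusted p = 2.3e-11) and by 0.62 ± 0.09 in vehicle mice (5.1e-06). The difference between PF-303 and vehicle with anti-IgD was 0.74 ± 0.08 (9.9e-07), and the 2 responses differed by 0.69 ± 0.12 (0.00097, not called with the position block at 0.57).

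Gaa, which encodes the acid alpha-glucosidase that degrades glycogen, had signals of 267, 304, 316, 262 and 255 with anti-IgD + PF-303 and 209, 216, 189.8 and 255 with anti-IgD + vehicle. PBS + PF-303 arrays had 166, 143, 136, 152 and 155 and PBS + vehicle arrays 176, 159, 152 and 181. One anti-IgD + PF-303 array, the lowest at 255, was level with the highest anti-IgD + vehicle array, and every anti-IgD array was above the PBS arrays of its own treatment. The response to anti-IgD was 0.83 ± 0.09 in PF-303 mice (adjusted p = 8.2e-08) and 0.35 ± 0.10 in vehicle mice (0.0045), a difference of 0.49 ± 0.13 (0.019, not called with the position block at 0.33). PF-303 in anti-IgD mice raised it by 0.35 ± 0.09 (0.0051).

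Gusb, which encodes beta-glucuronidase, had signals of 419, 412, 399, 389 and 352 with anti-IgD + PF-303 and 373, 345, 401 and 323 with anti-IgD + vehicle. The PBS groups had 295, 313, 273, 301 and 266 with PF-303 and 383, 292, 388 and 352 with vehicle. The 5 PBS + PF-303 arrays lay below the 5 anti-IgD + PF-303 arrays, and the vehicle groups overlapped. On the probe set used, its only calls were the response in PF-303 mice (0.43 ± 0.08, adjusted p = 0.00028) and the interaction (0.40 ± 0.12, 0.042), which was lost under 21 of the 30 alternatives run, with values down to 0.17 for the mean of its probe sets. It was lost on leaving out any of replicates 1 to 4 of anti-IgD + PF-303, replicates 1, 2 and 5 of anti-IgD + vehicle, replicates 1, 3 and 5 of PBS + PF-303 and replicates 1, 3 and 4 of PBS + vehicle (0.35 to 0.41). With all probe sets tested one by one, 1 of the 2 of Gusb was called higher with anti-IgD in vehicle mice (0.03 to 0.32). In PF-303 mice 1 of the 2 was called higher (0.26 to 0.43), and in the interaction 0 were called (-0.06 to 0.40).

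Man2b1 and Glb1 were lower with anti-IgD in vehicle mice. Man2b1, the lysosomal alpha-mannosidase, averaged 926 ± 87.5 on anti-IgD + PF-303 arrays, 735 ± 26.7 on anti-IgD + vehicle arrays, 1004 ± 20.3 on PBS + PF-303 arrays and 966 ± 78.1 on PBS + vehicle arrays (SD). Its arrays did not overlap between the stimulated groups (0.32 ± 0.07, adjusted p = 0.0019) or between anti-IgD and PBS with vehicle (-0.38 ± 0.08, 0.0003). Glb1, the lysosomal beta-galactosidase, passed the test only with anti-IgD in vehicle mice (-0.27 ± 0.11, 0.042), a call lost under 8 of the 31 alternatives run. Among these were leaving out replicate 1 (-0.25) or 5 (-0.23) of anti-IgD + vehicle and replicate 1 (-0.23) or 2 (-0.19) of PBS + vehicle.

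Genes of lipid breakdown were low on the anti-IgD + vehicle arrays. Psap encodes prosaposin, the precursor of saposins, which present glycolipids to their hydrolases. It had signals of 3692, 3187, 2848, 2756 and 2838 on anti-IgD + PF-303 arrays and 1819, 1829.9, 1694 and 1696 on anti-IgD + vehicle arrays. PBS arrays had 2652, 2316, 2889, 2380.2 and 2430.1 with PF-303 and 2311, 2055, 2382 and 3047 with vehicle. All 4 anti-IgD + vehicle arrays were below every other array, and the anti-IgD + PF-303 and PBS + PF-303 groups overlapped. PF-303 raised Psap in anti-IgD mice by 0.79 ± 0.11 (log2, adjusted p = 1.1e-05), and anti-IgD lowered it in vehicle mice, at -0.46 ± 0.12 (0.0022). In PF-303 mice the value was 0.27 ± 0.10 (0.049), a call lost under 20 of the 31 alternatives run, and the 2 responses differed by 0.73 ± 0.15 (0.0047, not called with the position block at 0.74). The call in PF-303 mice was lost on leaving out any of replicates 1 to 3 of anti-IgD + PF-303, replicates 1, 2, 4 and 5 of anti-IgD + vehicle, replicates 1, 2, 4 and 5 of PBS + PF-303 and replicates 1 and 3 of PBS + vehicle (0.20 to 0.29).

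Lipa, the lysosomal acid lipase that frees cholesterol from its esters, had signals of 228, 194, 194, 189.5 and 188 with anti-IgD + PF-303 and 138, 132, 132 and 116 with anti-IgD + vehicle. PBS + PF-303 arrays had 243, 266, 224, 230.4 and 249.6 and PBS + vehicle arrays 227, 244, 249 and 234. The anti-IgD + vehicle arrays again lay below all others. The response to anti-IgD was -0.27 ± 0.07 in PF-303 mice (adjusted p = 0.0058) and -0.81 ± 0.08 in vehicle mice (3.1e-08), and these differed by 0.54 ± 0.11 (0.003, not called at 0.41 without the 6 arrays of high spike-in level). The difference between PF-303 and vehicle with anti-IgD was 0.56 ± 0.08 (8.6e-06).

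Asah1, which encodes acid ceramidase, had signals of 464, 512, 506, 545 and 478 on anti-IgD + PF-303 arrays and 338, 361, 311 and 310.0 on anti-IgD + vehicle arrays. It had 485, 503, 501, 516 and 467 with PBS + PF-303 and 429, 473, 454 and 421 with PBS + vehicle. The stimulated groups were apart, while the groups of PF-303 mice overlapped. Its log2 differences were 0.58 ± 0.07 for PF-303 with anti-IgD (adjusted p = 1.6e-06), 0.02 ± 0.06 for anti-IgD in PF-303 mice (0.88) and -0.41 ± 0.07 for anti-IgD in vehicle mice (5.7e-05), with an interaction of 0.43 ± 0.10 (0.0071, not called with the position block at 0.42).

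Ppt1, the palmitoyl thioesterase that removes fatty acids from proteins, had signals of 397, 396, 356, 385 and 338 with anti-IgD + PF-303 and 256, 272, 256 and 238 with anti-IgD + vehicle. The PBS groups had 392, 378, 395, 405 and 365 with PF-303 and 433, 333, 470.4 and 422 with vehicle. Here too the 4 anti-IgD + vehicle arrays were the lowest of the 18. PF-303 raised it in anti-IgD mice by 0.52 ± 0.08 (adjusted p = 5.1e-05), anti-IgD lowered it in vehicle mice (-0.66 ± 0.09, 2e-06), and the interaction was 0.61 ± 0.12 (0.0022). Grn, which encodes progranulin, was called on the probe set used only with anti-IgD in PF-303 mice (0.28 ± 0.08, 0.0068). With PF-303 in anti-IgD mice 1 of its 3 probe sets was called higher (0.12 to 0.35 over the 3).

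The proteases divided. Tpp1, a tripeptidyl peptidase, had signals of 1573, 1229, 1232, 1158 and 1073 on anti-IgD + PF-303 arrays and 852, 725, 853 and 909.9 on anti-IgD + vehicle arrays. They were 650.5, 665, 705, 617 and 587 with PBS + PF-303 and 624, 656, 595 and 697 with PBS + vehicle. As for Hexa, both anti-IgD groups were above the PBS groups and the PF-303 arrays above the vehicle arrays. Anti-IgD raised it by 0.93 ± 0.09 in PF-303 mice (adjusted p = 3.1e-08) and by 0.37 ± 0.10 in vehicle mice (0.0042), with an interaction of 0.57 ± 0.13 (0.0098, not called with the position block at 0.44). The difference for PF-303 with anti-IgD was 0.57 ± 0.09 (8.2e-05).

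Ctsa encodes cathepsin A, a carboxypeptidase that also protects beta-galactosidase and neuraminidase in the lysosome. Its signals were 1173, 1374, 1392, 1389 and 1263 with anti-IgD + PF-303 and 989, 853, 978 and 997 with anti-IgD + vehicle. PBS + PF-303 arrays had 925, 793, 800.2, 834 and 801, and PBS + vehicle arrays 880.0, 837, 983 and 755. The anti-IgD + PF-303 arrays were above all 13 others, and the remaining groups overlapped with one another. The log2 difference of PF-303 with anti-IgD was 0.46 ± 0.08 (adjusted p = 0.00019), anti-IgD raised it in PF-303 mice by 0.66 ± 0.08 (7.6e-07), and in vehicle mice the value was 0.14 ± 0.09 (0.18). The interaction was 0.51 ± 0.12 (0.008) and was lost with the position block (0.37) and with the mean of its probe sets (0.37). On its other probe set the response to anti-IgD in PF-303 mice was -0.01 and the interaction 0.23, neither of them called.

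Ctsd, the aspartic protease cathepsin D, had signals of 310.2, 338, 332, 284 and 288 with anti-IgD + PF-303 and 230.1, 279, 240.0 and 173 with anti-IgD + vehicle. PBS arrays had 201, 209, 211, 187 and 150.3 with PF-303 and 200.0, 166, 226 and 173 with vehicle. The anti-IgD + PF-303 arrays were again the highest, and the other groups overlapped. PF-303 with anti-IgD gave 0.42 ± 0.12 (adjusted p = 0.0092), which was lost without replicate 5 of anti-IgD + vehicle (0.30), and anti-IgD in PF-303 mice gave 0.66 ± 0.11 (6.9e-05). The interaction was 0.42 ± 0.17 and was not called (0.12).

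Ctsh, an aminopeptidase, followed the lipid enzymes. Its signals were 2230.5, 2166, 2556, 2196 and 2123 on anti-IgD + PF-303 arrays and 1443, 1699, 1427 and 1544 on anti-IgD + vehicle arrays. With PBS they were 2584, 2297, 2847, 2941 and 2184 for PF-303 and 2041, 2303, 2994 and 2434 for vehicle. The 4 anti-IgD + vehicle arrays lay below all 14 others. The log2 differences were 0.56 ± 0.11 for PF-303 with anti-IgD (adjusted p = 0.00048) and -0.66 ± 0.12 for anti-IgD in vehicle mice (5.9e-05), and the interaction just missed the threshold (0.48 ± 0.15, 0.053).

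Ctsl, the endopeptidase cathepsin L, had signals of 85.6, 95.1, 157, 103 and 164 with anti-IgD + PF-303 and 101, 150.4, 161 and 67.6 with anti-IgD + vehicle. In PBS mice they were 75.5, 102, 62.6, 75.1 and 82.3 with PF-303 and 82.5, 69.6, 69.3 and 44.5 with vehicle. The groups overlapped in each pair that was tested, and its one call, with anti-IgD in vehicle mice (0.68 ± 0.22, adjusted p = 0.013), was lost under 5 of the 31 alternatives run, among them leaving out replicate 2 (0.56) or 4 (0.53) of anti-IgD + vehicle and replicate 4 of PBS + vehicle (0.54). On the probe sets used, Ctsb and Ctsz, further cathepsins, were called only with anti-IgD in PF-303 mice (0.26 ± 0.08, 0.019 and 0.29 ± 0.11, 0.048). With PF-303 in anti-IgD mice 1 of the 3 probe sets of Ctsz had a call, as higher (0.10 to 0.23 over the 3). The call of Ctsb was lost without replicate 2 of anti-IgD + PF-303 (0.21) or replicate 5 of PBS + PF-303 (0.23), and that of Ctsz under 17 of the 31 alternatives, among them leaving out any of replicates 1 to 4 of anti-IgD + PF-303 (0.22 to 0.31), replicates 1, 2, 4 and 5 of anti-IgD + vehicle, replicates 1, 2 and 5 of PBS + PF-303 (0.23 to 0.29) and replicate 2 of PBS + vehicle. Ctsc, which encodes a dipeptidyl peptidase that activates granule proteases, had no call, with values of 0.20 ± 0.10 for PF-303 with anti-IgD (0.13) and 0.05 ± 0.10 for anti-IgD in vehicle mice (0.74).

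Of the 11 autophagy genes 5 were called in any comparison on the probe set used. Gabarapl2, one of the ATG8 proteins that are coupled to the autophagosome membrane, averaged 556 ± 42 with anti-IgD + PF-303, 435 ± 27.8 with anti-IgD + vehicle, 678 ± 32.2 with PBS + PF-303 and 616 ± 20.2 with PBS + vehicle (SD). Its 4 groups did not overlap in any of the pairs compared. It was higher with PF-303 in anti-IgD mice (0.34 ± 0.07, adjusted p = 0.00055) and lower with anti-IgD in PF-303 mice (-0.28 ± 0.06, 0.0016) and in vehicle mice (-0.49 ± 0.07, 7.5e-06), and the interaction was not called (0.21 ± 0.10, 0.19). Map1lc3b, another ATG8 gene, was higher with anti-IgD in PF-303 mice (0.37 ± 0.12, 0.016), where Gabarapl1 was lower (-0.39 ± 0.15, 0.04). Of the 4 probe sets of Map1lc3b 1 was called higher there (0.15 to 0.37 over the 4). With PF-303 in anti-IgD mice 2 of the 4 were called higher (-0.32 to 0.48 over the 4), while the probe set used had 0.24 (limma, adjusted p = 0.15). The call of Map1lc3b with anti-IgD in PF-303 mice was lost without replicate 3 of anti-IgD + PF-303 (0.29) or replicate 5 of PBS + PF-303 (0.30). That of Gabarapl1 was lost under 11 of the 30 alternatives run, with values from -0.52 to -0.22, among them leaving out replicate 2 or 5 of anti-IgD + PF-303 (-0.40 and -0.31) or replicate 1, 2, 3 or 4 of PBS + PF-303 (-0.41 to -0.35).

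Sqstm1, the cargo receptor p62, averaged 502 ± 40.0 with anti-IgD + PF-303, 488 ± 22.5 with anti-IgD + vehicle, 487 ± 41 with PBS + PF-303 and 505 ± 39 with PBS + vehicle (SD). None of its comparisons was called, and their log2 values lay between -0.05 and 0.09, with standard errors up to 0.11. Of the 7 genes of autophagosome formation, Atg12, a ubiquitin-like protein coupled to ATG5, was lower with anti-IgD in PF-303 mice (-0.35 ± 0.10, adjusted p = 0.01), and Becn1, a subunit of the lipid kinase complex that starts the membrane, was higher with anti-IgD in vehicle mice (0.21 ± 0.07, 0.021). The call of Atg12 was lost with the mean of its probe sets (-0.16), without the 6 arrays of high spike-in level (-0.18) and with the position block (-0.32). The call of Becn1 was lost under 8 of the 31 alternatives run, among them leaving out replicate 1 (0.19) or 5 (0.18) of anti-IgD + vehicle and replicate 3 of PBS + vehicle (0.19). With PF-303 in anti-IgD mice the 7 values ran from -0.08 for Becn1 to 0.29 for Atg7, which encodes the activating enzyme of the conjugation systems. In that comparison the arrays of Atg5 did not overlap (0.24 ± 0.10), at an adjusted p of 0.062, and 1 of its 3 probe sets was called (0.20 to 0.42 over the 3). Ulk1, the kinase that starts autophagy, had 0.23 ± 0.11 (0.13), and Atg16l1 and Wipi1, which bind at the growing membrane, had 0.01 and 0.28 (0.97 and 0.17).

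Genes of the same pathways beyond the 38 were also mostly higher where they were called with PF-303 in anti-IgD mice, where 19.8% of all genes were higher and 10.4% lower, with a median of 0.08. Of 15 measured subunits of the V-ATPase, the proton pump that acidifies the lysosome, 9 were higher and 0 lower (median log2 difference 0.29), and of 37 other lysosomal hydrolases and membrane proteins 20 were higher (54.1%) and 1 lower (0.37). Of 25 other core autophagy genes 9 were higher (36.0%) and 0 lower (0.26), of 19 genes of autophagy receptors and fusion 9 (47.4%) and 0 (0.28), and of 30 genes of lysosomal nutrient sensing and TFEB regulation 16 (53.3%) and 1 (0.32). Lgmn, the asparaginyl endopeptidase legumain, was higher by 1.05 ± 0.11 (adjusted p = 2.5e-07), and so were Acp5, an acid phosphatase (0.97 ± 0.16), Smpd1, the acid sphingomyelinase (0.85 ± 0.12), and Pik3r4, a regulatory subunit of the lipid kinase of autophagy (0.79 ± 0.09). Among genes of fusion Tecpr1 (0.70 ± 0.15), the SNARE gene Vamp8 (0.67 ± 0.10) and the tethering gene Vps18 (0.63 ± 0.14) were higher. The 2 genes that were lower were M6pr, the cation-dependent mannose 6-phosphate receptor (-0.54 ± 0.08), and Mtor (-0.31 ± 0.10). In PBS mice the single call in these 5 lists was Igf2r, the other mannose 6-phosphate receptor, which was lower with PF-303 (-0.32 ± 0.07, adjusted p = 0.033).

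With anti-IgD in vehicle mice 8 of the 15 V-ATPase genes were higher (53.3%) and 0 lower (median 0.31), where 17.4% of all genes were higher and 30.6% lower. Atp6v1h (0.98 ± 0.10), Atp6ap2 (0.93 ± 0.08) and Atp6v0d1 (0.91 ± 0.13) had the largest changes. Of the other lysosomal genes 5 were higher and 17 lower (-0.18), of other core autophagy genes 2 and 11 (-0.27), of receptors and fusion 1 and 10 (-0.38), and of nutrient sensing 7 and 13 (-0.22), where the median of all genes was -0.13. Acp5 (-1.71 ± 0.17), Ctso, a further cathepsin (-1.10 ± 0.14), and Smpd1 (-1.09 ± 0.12) were lower, as were Wipi2 (-0.98 ± 0.11) and Atg13 (-0.95 ± 0.11) of the early autophagy machinery and Stx17 (-0.97 ± 0.12), the SNARE of the autophagosome. Gla, the alpha-galactosidase A gene, was higher (1.13 ± 0.15). In PF-303 mice 12 of 15 V-ATPase genes were higher (80.0%, against 14.7% of all genes) and 0 lower (0.49), with Atp6v0d1 at 1.23 ± 0.11, and the interaction called 0 of the 15 in limma, with a median of 0.15 and 3 at an unadjusted p under 0.05. In PF-303 mice 13 of 37 other lysosomal genes were higher and 8 lower (35.1% and 21.6%, against 14.7% and 19.1% of all genes). Other core autophagy genes had 6 higher and 7 lower of 25, and receptors and fusion 3 and 5 of 19. The interaction called 14 of the 37 other lysosomal genes higher (37.8%) and 1 lower, against 6.66% and 3.12% of all genes. It called 3 of the 25 core autophagy genes (12.0%) and 2 of the 19 of receptors and fusion (10.5%) higher, and 0 lower.

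**Figure D4:**
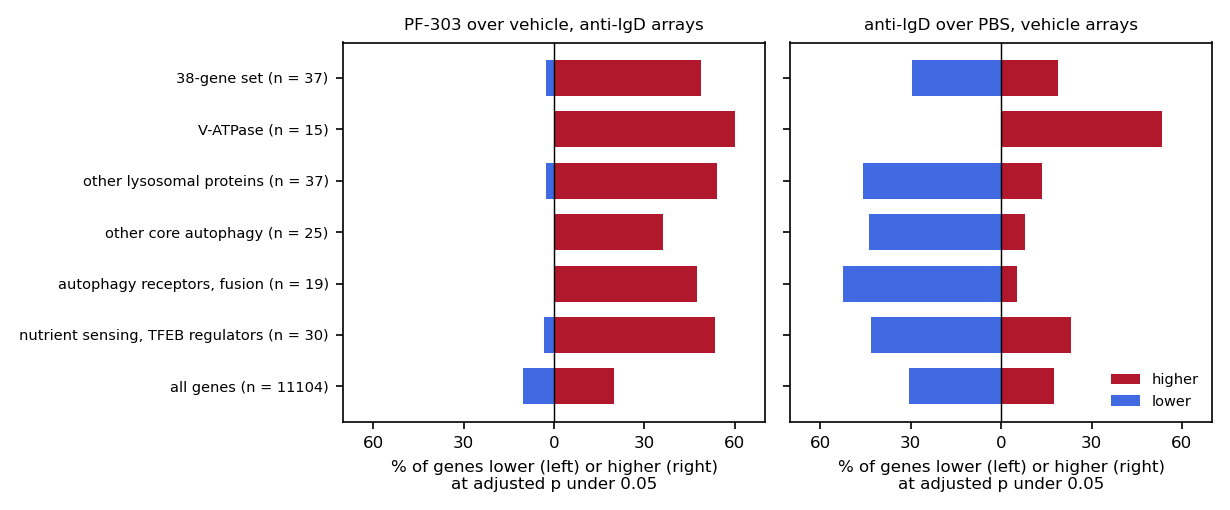
Share of genes called higher (right, red) or lower (left, blue) among the 37 genes with a value, the 5 further lists and all 11104 genes (horizontal axes, percent), for PF-303 over vehicle in anti-IgD mice and for anti-IgD over PBS in vehicle mice. With PF-303 each of the named lists has at most 1 gene on the left, and with anti-IgD the V-ATPase list alone has no gene on the left.

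Of the 30 genes of lysosomal nutrient sensing and TFEB regulation, anti-IgD left 7 higher and 6 lower in PF-303 mice (23.3% and 20.0%, against 14.7% and 19.1% of all genes) and 7 higher and 13 lower in vehicle mice (23.3% and 43.3%, against 17.4% and 30.6%). The interaction called 6 higher (20.0%, against 6.66%) and 0 lower. Rragd, which encodes the RagD GTPase, averaged 161 on anti-IgD + PF-303 arrays, 79.8 on anti-IgD + vehicle arrays, 16.5 on PBS + PF-303 arrays and 19.1 on PBS + vehicle arrays. Its log2 difference with anti-IgD was 2.45 ± 0.12 in PF-303 mice (adjusted p = 5.7e-13) and 1.44 ± 0.13 in vehicle mice (9.6e-09), and the 2 responses differed by 1.01 ± 0.18 (0.0012). Rragc, its paralogue, rose by 1.25 ± 0.07 in PF-303 mice and 0.88 ± 0.08 in vehicle mice, and Flcn, which encodes folliculin, an activator of RagC and RagD, rose by 1.47 ± 0.10 in PF-303 mice and 1.21 ± 0.11 in vehicle mice. The interaction was called for Rragc (0.36 ± 0.11, adjusted p = 0.034) and not for Flcn (0.26 ± 0.14, 0.28). Fnip1, a partner of folliculin, rose with anti-IgD by 0.93 ± 0.16 in PF-303 mice and 1.26 ± 0.18 in vehicle mice. The mTORC1 inhibitor Sesn1 was lower with anti-IgD in PF-303 mice (-0.91 ± 0.08) and in vehicle mice (-1.49 ± 0.09). Its relative Sesn3 was also lower in PF-303 mice (-0.57 ± 0.08) and in vehicle mice (-0.92 ± 0.09). Ddit4, another such inhibitor, was lower with anti-IgD in vehicle mice (-1.03 ± 0.18), had -0.23 ± 0.16 in PF-303 mice (adjusted p = 0.29) and was higher with PF-303 in anti-IgD mice (1.27 ± 0.17).

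Macrophages are rich in lysosomes, and their markers were read on the same arrays. Of 14 markers of macrophages and monocytes 12 were measured, with summed signals of 2374 to 3838 on anti-IgD + PF-303 arrays, 1429 to 3926 on anti-IgD + vehicle arrays, 2079 to 3470 on PBS + PF-303 arrays and 2183 to 3119 on PBS + vehicle arrays. In limma 0 of the 12 were called with PF-303 in anti-IgD mice, where 0 had an unadjusted p under 0.05, and 0 in PBS mice, where 1 had. With anti-IgD, Cd14 was higher in PF-303 mice (1.57 ± 0.49, adjusted p = 0.017) and in vehicle mice (1.52 ± 0.55, 0.027), and Mpeg1 was lower in PF-303 mice (-0.45 ± 0.12). With PF-303 in anti-IgD mice the one gene called among markers of plasma, dendritic, T and NK cells, neutrophils, erythroid cells and platelets was Zbtb46 of dendritic cells (-0.48 ± 0.17). With anti-IgD in PF-303 mice the plasma cell markers Prdm1 (0.96 ± 0.11) and Xbp1 (0.27 ± 0.09) were higher and Sdc1 lower (-0.54 ± 0.19), and S100a8 of neutrophils (1.07 ± 0.39), Cd28 of T cells (0.47 ± 0.17) and Prf1 of NK cells (0.37 ± 0.13) were higher. With anti-IgD in vehicle mice Prdm1 was higher (1.07 ± 0.13) and Sdc1 lower (-0.84 ± 0.21). The part of these cells in the values of the 37 genes was not tested. The arrays measure all cells of a sample together, so fewer cells of a type and less RNA per cell cannot be told apart in any value given here.

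Of the 37 genes 26 had several probe sets above the filter, and in none of the 5 comparisons did 2 probe sets of a gene have calls in opposite directions. With the mean of a gene's probe sets in place of the one with the highest signal, calls were lost with anti-IgD in PF-303 mice for Ctsb (0.16), Psap (0.28) and Atg12 (-0.16), with anti-IgD in vehicle mice for Becn1 (0.17), and in the interaction for Ctsa (0.37), Gusb (0.17) and Scarb2 (0.35). Calls were made that way with anti-IgD in vehicle mice for Lamp2 (0.50), Npc2 (-0.21), Ulk1 (-0.29) and Atg5 (-0.28), and with PF-303 in anti-IgD mice for Grn (0.22) and Atg5 (0.29). They were also made with anti-IgD in PF-303 mice for Man2b1 (-0.35) and Npc2 (0.18) and in the interaction for Man2b1 (0.28), Npc2 (0.39) and Gabarapl1 (-0.48). On the probe set used, no call in any comparison was made for 7 genes, namely Ctsc, Sqstm1, Ulk1, Atg5, Atg7, Atg16l1 and Wipi1. Of these Ulk1 was called lower with anti-IgD in vehicle mice under 4 alternatives, and Atg5 was called higher with PF-303 in anti-IgD mice under 6.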

How the data were processed

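The deposited values are MAS5 signals, a probe-set intensity on a linear scale that the authors made with MAS5, per the submitters' processing notes; its version and settings are not given in the sources used here. Every array had the same 2%-trimmed mean (99.96 to 99.97), so levels are relative to the rest of the array, and MAS5 makes low signals noisy. Per the labels' protocols, 150 ng of RNA per sample was labelled with a 3′ kit. Of 45101 probe sets, 64 controls, 932 with several symbols and 9160 with none were left out, and 34945 had 1 symbol. Symbols were updated through RefSeq gene identifiers (204 had no match). Signals were analysed as log2(signal + 16), which shrinks fold changes of low genes, for probe sets above 15.2 in at least 4 arrays, with 1 probe set per gene by highest mean. Limma 3.58.1 in R 4.3.3 (lmFit, eBayes with trend) fitted 1 mean per group over 18 arrays, two-sided, adjusted by Benjamini-Hochberg over 11104 genes. The number of arrays limits the precision: the median standard error over the 37 genes was 0.10 for anti-IgD in vehicle mice and 0.14 for the interaction. The smallest SD of log2 differences between 2 arrays was 0.262, so none was deposited more than once. In simulated data for anti-IgD in vehicle mice, 96 of 100 genes changed by 1 and 53 of 100 changed by 0.5 (log2) were recovered among 11104 genes, with 8 unchanged genes called. Only those genes were changed in the simulation, whereas 5322 were called in the data. The adjusted threshold was thus stricter in the simulation, and its recovery is not that of the real comparison. Groups came from the labels. Arrays of equal replicate number were treated as unpaired in the main fit. Their deviations had a median correlation of -0.003 over 24 pairs (7 above 0.1). Arrays of unequal number had -0.017 over 97 pairs (18 above 0.1). These correlations cannot show whether the samples were paired by design. Alternatives changed the offset, filter, scaling, probe-set rule, blocks, covariate and arrays. Genes named were those called, with values on every array for up to 8 with the largest change per comparison and for Tfeb, Tfe3 and Mcoln1, and up to 3 per direction in each further list (values of Rragc, Flcn, Fnip1, Ddit4, Lgmn, M6pr and Igf2r in comparisons beyond this rule were chosen after they were seen). The genes, lists and tests were chosen with earlier results of these data known.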

Additional observations from a re-analysis of the deposited data

Results flagged for a closer look

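For 13 of the 37 genes the response to anti-IgD differed between PF-303 and vehicle mice by the interaction test, on the log2 scale by 0.84 for Tfeb, 0.75 for Npc1, 0.73 for Psap, 0.69 for Hexa, 0.63 for Scarb2, 0.61 for Ppt1, 0.57 for Tpp1, 0.54 for Lipa, 0.51 for Ctsa, 0.49 for Gaa, 0.43 for Asah1, 0.42 for Mcoln1 and 0.40 for Gusb. In all 13 the value was higher in PF-303 mice. With the position letter as a block 4 of them, Npc1, Scarb2, Ppt1 and Lipa, were still called, and Tfeb (0.95), Psap (0.74), Hexa (0.57), Tpp1 (0.44), Ctsa (0.37), Gaa (0.33), Asah1 (0.42), Mcoln1 (0.20) and Gusb (0.44) were not. The PF-303 and vehicle groups compared share no arrays in this test.

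Of 148 sets of arrays (37 genes in 4 groups), 14 held an array whose gap to its nearest neighbour was large for the spread of its group (Dixon's test), where chance gives about 1 in 20. Stimulated arrays of this kind were those of Ctsc (3814) and Ctsh (2556) on replicate 3, Lipa (228) on replicate 1 and Gabarapl1 (27.6) on replicate 5 of anti-IgD + PF-303, and of Ctsa (853) on replicate 2 and Ctsb (617) on replicate 5 of anti-IgD + vehicle. Unstimulated ones were Scarb2 (251) and Gabarapl2 (734) on replicate 1, Tfe3 (115) on replicate 3 and Tfeb (186) on replicate 5 of PBS + PF-303, and Npc2 (995), Atg7 (31.2) and Becn1 (1106) on replicate 1 and Map1lc3b (1422) on replicate 3 of PBS + vehicle. Replicate 3 of both PF-303 groups and of PBS + vehicle and replicate 1 of anti-IgD + PF-303 are among the 6 arrays whose spike-in controls were high, and the part of that level in these values was not tested.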

How the results depend on the processing

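No call of the 37 genes changed direction under any alternative run. The calls held under every alternative for 13 of 19 genes with PF-303 in anti-IgD mice, 9 of 19 with anti-IgD in PF-303 mice, 14 of 18 with anti-IgD in vehicle mice and 2 of 13 in the interaction. The position letter as a block left 1725 of 3352 genes called with PF-303 in anti-IgD mice, 42 of 83 with PF-303 in PBS mice and 291 of 1086 in the interaction, with 4 of the 13 named genes higher in the interaction and 1 of 5 lower with anti-IgD in PF-303 mice. Leaving out the 6 arrays with high spike-in controls, these counts were 46 with PF-303 in PBS mice, 715 in the interaction, 8 higher in the interaction and 3 lower in PF-303 mice, and 20 of the 37 genes were higher with PF-303 in anti-IgD mice. For PF-303 in PBS mice 28 genes were called with only the groups compared and 155 with the spike-in signal as covariate. Shifting arrays to one median left 11 genes higher with anti-IgD in vehicle mice in place of 7, and the mean of a gene's probe sets gave 1 gene, Gabarapl1, with a lower response in the interaction. The replicate block gave 18 higher with PF-303 in anti-IgD mice, 13 higher and 5 lower with anti-IgD in PF-303 mice, 10 higher and 11 lower for vehicle mice given anti-IgD and 11 in the interaction. Without the 2 arrays of high GAPDH ratio, an alternative chosen after seeing the data, 20 were higher with PF-303 in anti-IgD mice. The cause of these changes was not tested, beyond the smaller number of arrays where some were left out.

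Leaving out 1 array at a time gave 17 to 19 of the 37 genes higher and 1 lower with PF-303 in anti-IgD mice (2852 to 3568 genes in all), 0 higher and 0 to 1 lower with PF-303 in PBS mice (42 to 108), 10 to 15 higher and 4 to 5 lower with anti-IgD in PF-303 mice (3372 to 3939), 6 to 8 higher and 10 to 12 lower for vehicle mice given anti-IgD (4843 to 5388), and 11 to 13 higher and 0 lower in the interaction (785 to 1160).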

Other observations

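The pair of receptors that bring newly made hydrolases to the lysosome by their mannose 6-phosphate tag had unlike values. M6pr averaged 1168 on anti-IgD + PF-303 arrays, 1706 on anti-IgD + vehicle arrays, 824 on PBS + PF-303 arrays and 878 on PBS + vehicle arrays. Anti-IgD raised it by 0.49 ± 0.08 (log2) in PF-303 mice and by 0.95 ± 0.09 in vehicle mice, and the response in PF-303 mice was lower by 0.46 ± 0.12 (limma, adjusted p = 0.016). Igf2r averaged 347 on anti-IgD + PF-303 arrays, 335 on anti-IgD + vehicle arrays, 115 on PBS + PF-303 arrays and 147 on PBS + vehicle arrays. Its response was 1.47 ± 0.07 in PF-303 mice and 1.11 ± 0.07 in vehicle mice, and the difference of 0.37 ± 0.10 (adjusted p = 0.024) comes with a lower level in PBS + PF-303 arrays.

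Of the proteases known from antigen processing, Lgmn averaged 669 on anti-IgD + PF-303 arrays, 314 on anti-IgD + vehicle arrays, 399.7 on PBS + PF-303 arrays and 399 on PBS + vehicle arrays. Its response to anti-IgD was 0.71 ± 0.10 in PF-303 mice (adjusted p = 7.2e-06) and -0.32 ± 0.11 in vehicle mice (0.022), a difference of 1.03 ± 0.15 (0.00023). Ctss, the cathepsin that trims the invariant chain, averaged 4887 on anti-IgD + PF-303 arrays, 3423 on anti-IgD + vehicle arrays, 5014 on PBS + PF-303 arrays and 4815 on PBS + vehicle arrays. It was higher with PF-303 in anti-IgD mice (0.51 ± 0.15, adjusted p = 0.015) and lower with anti-IgD in vehicle mice (-0.47 ± 0.16, 0.019), and its interaction was not called (0.45 ± 0.22, 0.21). Ctss was chosen for its role in antigen processing after its values were seen.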
